A study of Rattus norvegicus with 24 samples.

Results

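Cathepsins are proteases, most of which work inside lysosomes and endosomes. Cathepsin S is made mainly by antigen-presenting cells, where it cuts the last fragments of the invariant chain from MHC class II molecules so that peptides can be loaded. Cathepsin B is a cysteine protease found in the lysosomes of nearly all cells, and cathepsin C (dipeptidyl peptidase I) activates the serine proteases of cytotoxic and myeloid granules. Cathepsin W is expressed by cytotoxic T cells and NK cells, and cathepsin G is a serine protease of neutrophil granules that shares only its name with the cysteine cathepsins.

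The cathepsin genes described here are those whose name in the array annotation is Cts followed by 1 letter. The rule found 5 of the 7263 genes named on the array, *Ctss*, *Ctsc*, *Ctsb*, *Ctsw* and *Ctsg*, and each was covered by 1 probe spotted 1 time. No spot of the 5 probes was marked as an outlier or as saturated. Other cathepsins were not analysed here, because no further probe carried the word in its description or a matching RefSeq accession.

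Both groups were skin explants from the paws of male BN rats aged 15 weeks. Of the 2 explants compared in each of 12 rats, one was cultured for 3 days with syngeneic BN lymphocytes and the other with allogeneic PVG lymphocytes, both after a 7-day mixed lymphocyte reaction against irradiated BN splenocytes. Skin cultured with allogeneic lymphocytes serves as a model for the reaction of a graft against its host. It has no blood flow, and the only cells that can arrive are the lymphocytes added. Each RNA pair was hybridized to 2 two-color arrays with the dyes Cy3 and Cy5 exchanged, which gave 24 arrays on 3 slides with 4 rats per slide, and n is 12 rats throughout. Both samples of a rat lay on the same arrays, so that the log ratio compares them within the rat.

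The probes are shown because every value below rests on a single one of them, and the first 30 of their 60 bases are given from 5′ to 3′ as deposited, with their positions in the rat build rn3 named in the file headers.
Ctss: ctggcttacagcttgtttgttttataactt
Ctsc: gctggtcacctaaaatgcagccagatgttt
Ctsb: aaacctgcttttttgttgtaggtgccacgt
Ctsw: ccgccctgagcttctgcctgactttcccat
Ctsg: ccagactcagatctgtgtgggaaacccgag
The *Ctss* probe lay at chr2:190429437-190429496 and the *Ctsc* probe at chr1:144739441-144739500, both listed on the plus strand. The *Ctsb* probe lay at chr15:42439313-42439372, also on the plus strand, and the *Ctsw* probe at chr1:208262094-208262153 on the minus strand. The *Ctsg* probe was listed on the minus strand with a span of 460 bases, chr15:34638179-34638638, longer than the probe itself. All 5 probes were designed to transcripts, and which exon or untranslated region they lie in was not analysed here. Their GC content ran from 35% (*Ctsc*) over 38.3% (*Ctss*), 45% (*Ctsb*) and 51.7% (*Ctsg*) to 53.3% (*Ctsw*). The longest stretch that any of them shared with a probe of another gene was 14 bases, and the longest shared with another cathepsin probe was 7 bases, so the family members were read by distinct sequences.

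The arrays were similar in brightness with 1 exception. The array of rat 10 with the allogeneic sample in Cy5 had a median Cy3 signal of 6668, against at most 216 on the others. The 2 arrays of rat 10 correlated with each other at 0.13 over all probes. This correlation was also low without a bright array, at 0.20 in rat 3, 0.26 in rat 6 and 0.30 in rat 2. Rat 8 stood apart in another way, since its log ratios correlated at 0.24 at most with those of any other rat, although its own 2 arrays correlated at 0.94. Results for the cathepsins are therefore also given without rats 8 and 10. The keratinocyte markers on the array, *Dsc3* and *Trp63*, were well above background on all 24 arrays, as fits the labelled tissue.

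*Ctss* was lower in the allogeneic explant of every rat, and *Ctsc* was lower in 11 of 12, whereas *Ctsb*, *Ctsw* and *Ctsg* did not pass the test. Negative values mean lower in the sample labelled allogeneic; this direction follows the dyes in the labels and methods. It is opposite to the one the study gives for *Ctss* and for *Gzmc*, *RT1-DMb* and *Aif1*, and for *RT1-DMb* and *Aif1* also to its PCR measurements in part of the same sample pairs. The study also reports *Aif1* as higher in independent explants, and both genes as higher in skin lesions of transplanted rats. In the PCR of the sample pairs, most MHC and NKC genes tested had the study's array direction, and PCR does not depend on the array dyes. *Ctss* was not among the genes tested. The direction by the labels is therefore in doubt, and no "lower" here should be read as settled. Whether the dyes were recorded the wrong way round was not tested. If they were, each "lower" in this text would read "higher" and each "higher" "lower", with sizes and tests as given. The log2 change that the study gives for *Ctss* is also larger in size than the one found here, whichever sign is used. In the limma fit, 2 of the 5 cathepsin genes were called at an adjusted p under 0.05, both lower, beside 16.3% of all 7263 genes called in either direction, 7.6% called lower and 8.66% called higher. The same sign in all 12 rats, as for *Ctss*, was found for 5.87% of all genes.

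**Figure D1:**
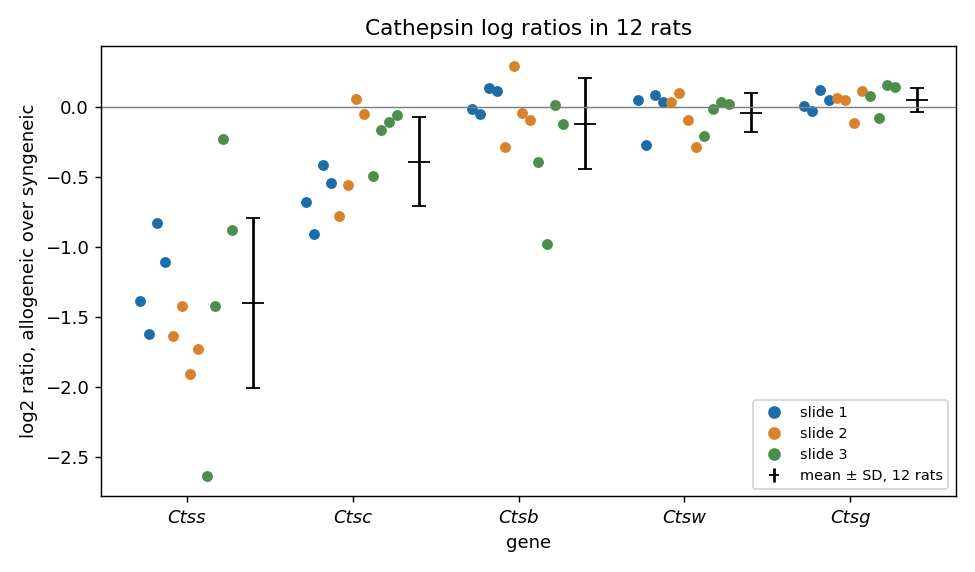
Log2 ratio of allogeneic over syngeneic explants (vertical axis) for the 5 cathepsin genes in 12 rats (1 point per rat, color by slide), with the mean and SD in black. All 12 points of *Ctss* lie below 0, between -2.63 and -0.22, while those of *Ctsw* and *Ctsg* lie close to 0.

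*Ctss* had a normalized log2 level from 8.53 to 12.07 in the allogeneic explants (median 11.64) and from 9.95 to 13.61 in the syngeneic explants (median 12.99). The lowest value of both groups belonged to rat 10, the animal with the bright array. In the other 11 rats the levels were 10.98 to 12.07 with allogeneic and 12.15 to 13.61 with syngeneic lymphocytes, and the groups did not overlap, which was true of 0.592% of all genes in these rats. With all 12 rats the groups overlapped only through rat 10, and 0.124% of all genes had groups that did not overlap.

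The *Ctss* log2 ratio was -1.39, -1.62, -0.83 and -1.10 in rats 1 to 4, which shared the first slide. It was -1.63, -1.42, -1.90 and -1.72 in rats 5 to 8 on the second slide, and -2.63, -1.42, -0.22 and -0.88 in rats 9 to 12 on the third. The smallest and the largest decrease were thus seen on the same slide, in rats 11 and 9. The mean log2 ratio was -1.40 ± 0.61 (SD, n = 12 rats; SE 0.16), a 2.63-fold lower level, with an adjusted p of 0.000176 by limma over all genes. This is past a log2 size of 1, a 2-fold change, and 0.551% of all genes were called lower and 0% higher by that size or more, so that all such changes ran to the same side, which would be the other side with the sign turned. A total of 14 genes of 7263 had a larger change in either direction. Without rats 8 and 10 the mean was -1.36 (limma, adjusted p = 0.000692), and without the bright array alone it was -1.45.

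The means of *Ctss* within the slides were -1.23, -1.67 and -1.29, each with all 4 rats below 0. With the slide as a block the adjusted p was 0.000635 by limma. A limma F test of the difference between slides gave an adjusted p of 0.92 for *Ctss*, and it called 0% of all genes. As the slides held 4 rats each, a moderate difference between them would not have been detectable.

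*Ctsc* had levels from 9.64 to 11.51 in the allogeneic explants (median 10.86) and from 9.81 to 11.82 in the syngeneic explants (median 11.33), with wide overlap of the groups. Within rats its log2 ratio ran from -0.90 in rat 2 to 0.06 in rat 7 (median -0.45). The mean was -0.39 ± 0.32 (SD, n = 12 rats; SE 0.09), a 1.31-fold lower level, with an adjusted p of 0.00894 by limma, and 341 genes had a larger change. Rats 1 to 6 and rat 9 lay at -0.41 or lower, whereas rats 7, 8, 10, 11 and 12 lay between -0.16 and 0.06. The slide means were -0.63, -0.33 and -0.20, and their difference did not pass the limma F test (adjusted p = 0.92). Without rats 8 and 10 the mean was -0.44 (limma, adjusted p = 0.00592).

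**Figure D2:**
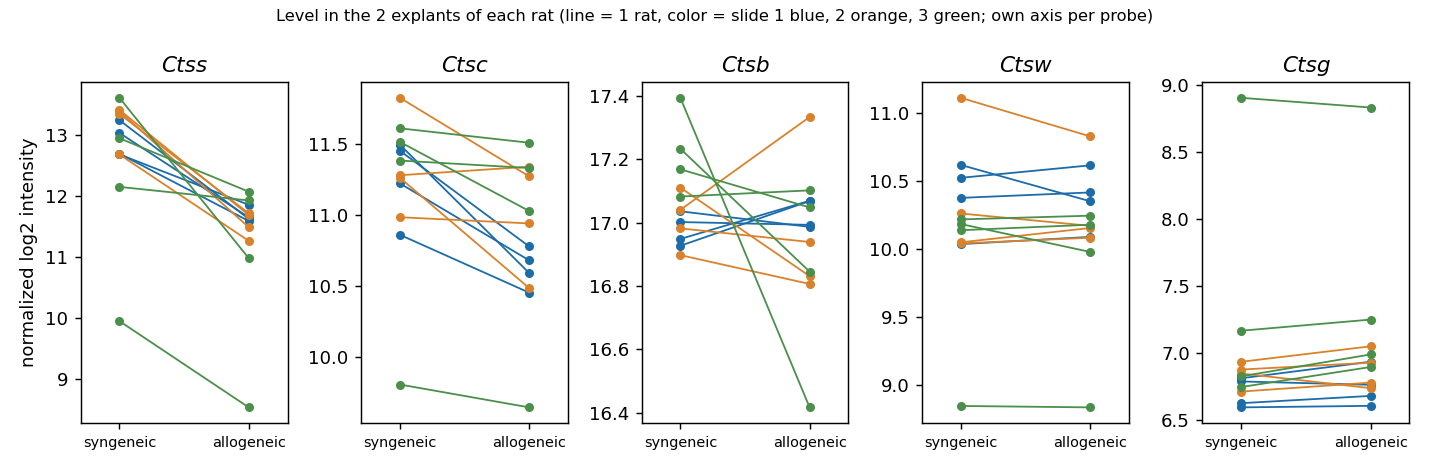
Normalized log2 intensity (vertical axis, own range for each probe) of the 5 cathepsin genes in the syngeneic and the allogeneic explant of each rat, joined by a line per rat and colored by slide. The *Ctss* lines all fall, those of *Ctsb* cross, and the low *Ctss*, *Ctsc* and *Ctsw* values and the high *Ctsg* value that lie apart belong to rat 10.

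*Ctsb* gave no call over both arrays of a rat, but its log ratio changed sign with the dye. Its levels were 16.42 to 17.33 in the allogeneic explants (median 16.99) and 16.90 to 17.39 in the syngeneic explants (median 17.04), and its mean log2 ratio was -0.12 ± 0.33 (SD, n = 12 rats; SE 0.09; limma, adjusted p = 0.433). Where Cy5 marked the allogeneic RNA, the log2 ratio of *Ctsb* was above 0 in 11 of 12 rats, with a mean of 0.58 ± 0.46 (SD). Where Cy3 marked it, the log2 ratio was below 0 in 12 of 12, with a mean of -0.81 ± 0.26 (SD). Each orientation alone would have called the gene, with adjusted p values by limma of 0.00375 and 1.33e-05, in opposite directions. Such opposite calls were made for 396 of all genes, and calls in the same direction by both orientations for 581.

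The difference between the orientations of *Ctsb* was 1.39 ± 0.36 (SD, n = 12 rats) on the log2 scale, and 4 of the 8453 probes had a larger one. By limma, 52% of all probes differed between the orientations, the 5 cathepsin probes among them. The exception on the Cy5 side was the bright array of rat 10, at -0.73. Rat 10 also had the lowest mean of *Ctsb* over its 2 arrays, -0.98, and without it and rat 8 the mean over rats was -0.03. With median centring in place of loess the mean was -0.33 (limma, adjusted p = 0.139), so the size of a *Ctsb* change, if any, was not settled by these arrays.

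**Figure D3:**
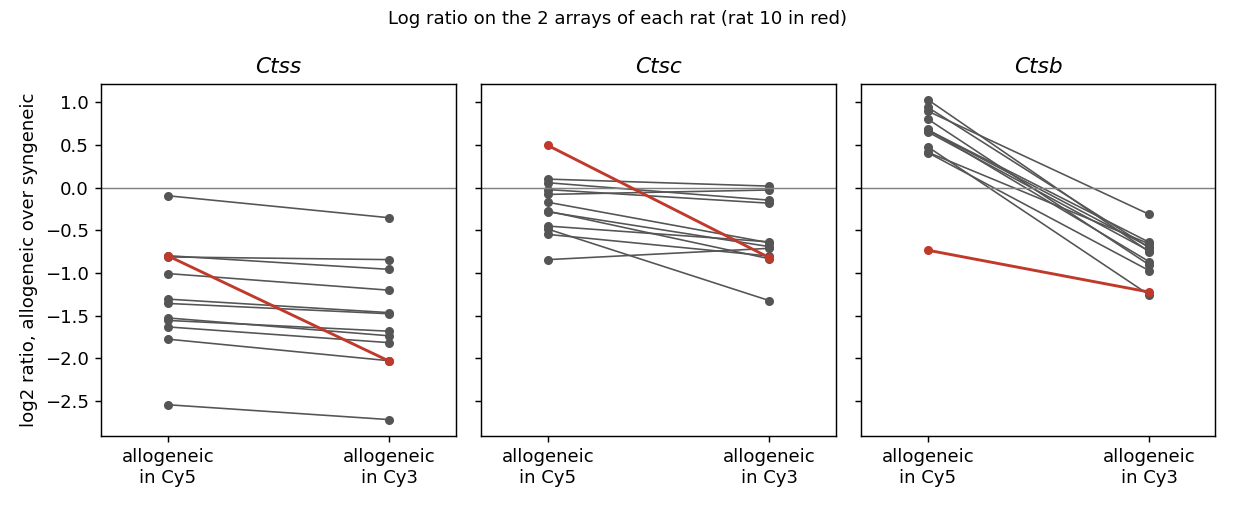
Log2 ratio of allogeneic over syngeneic explants (vertical axis) on the array with the allogeneic sample in Cy5 and on the array with it in Cy3, joined by a line per rat, for *Ctss*, *Ctsc* and *Ctsb* (rat 10 in red). *Ctss* lies below 0 in 12 of 12 rats in both orientations, while *Ctsb* moves from above 0 to below 0 in every rat but rat 10.

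*Ctss* was called in both orientations, with means of -1.27 ± 0.62 and -1.53 ± 0.63 (SD, n = 12 rats) and adjusted p values by limma of 0.000227 and 5.82e-05. *Ctsc* was called with the allogeneic sample in Cy3 (-0.57 ± 0.40 SD; limma, adjusted p = 0.0021) but not with it in Cy5 (-0.21 ± 0.35 SD; limma, adjusted p = 0.117). On the bright array of rat 10, *Ctsc* was at 0.50, the highest of all arrays, and on the second array of this rat at -0.82.

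*Ctsw* and *Ctsg* showed small differences. *Ctsw* had levels from 8.84 to 10.83 in the allogeneic explants (median 10.18) and from 8.85 to 11.11 in the syngeneic explants (median 10.20). Its mean log2 ratio was -0.04 ± 0.14 (SD, n = 12 rats; SE 0.04; limma, adjusted p = 0.566), and it was lower in 5 rats and higher in 7. *Ctsg* was the dimmest measurement relative to its background, being well above background on 20 of 24 arrays for the syngeneic and on 24 for the allogeneic sample. Its levels were 6.60 to 8.83 in the allogeneic explants (median 6.91) and 6.59 to 8.90 in the syngeneic explants (median 6.82), and the mean log2 ratio was 0.05 ± 0.09 (SD, n = 12 rats; SE 0.03; limma, adjusted p = 0.206). The offset of 50 added to the signals draws the log ratios of dim probes towards 0, and with an offset of 0 the mean of *Ctsg* was 0.12 (limma, adjusted p = 0.151).

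The *Ctss* change was compared with that of the other cathepsins within the same rats. The log2 ratio of *Ctss* was lower than that of *Ctsc* by -1.01 ± 0.63 (SD, n = 12 rats), of *Ctsb* by -1.28 ± 0.59, of *Ctsw* by -1.36 ± 0.53 and of *Ctsg* by -1.45 ± 0.57, in 12 of 12 rats each. A two-sided exact permutation of the signs over rats gave p = 0.000488 for each of the 4 differences, the smallest value that 12 rats allow. The limma fit over all other genes gave adjusted p values of 1.91e-07 or less. It gave all 4 differences the same SE, 0.19, pooled over genes whose differences all contain *Ctss*. These limma values therefore overstate what 12 rats can show, and the exact p is the one to read. Since each difference contains *Ctss*, 99.6% of all genes passed the limma test, and the comparison says nothing particular about the cathepsin family.

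Among 6228 genes well above background on at least 12 arrays, the genes whose log ratio varied across rats most like that of *Ctss* were *Itgb2* (r = 0.95), *Rarres1* (0.94), *RGD1561143* (0.93), *RGD1562525* (0.93) and *Fcgr3* (0.93). *Itgb2* encodes the beta chain of the leukocyte integrins and *Fcgr3* a receptor for IgG. Their mean log2 ratios were -1.11, -0.95, -0.68, -1.11 and -0.96, each lower in 11 or 12 of 12 rats. Without rats 9 and 11, the most distant ones for *Ctss*, the correlations were 0.87, 0.79, 0.74, 0.74 and 0.75. All these values come from the same 24 arrays. The correlations with *Ctss* within the family were 0.21 for *Ctsc*, 0.32 for *Ctsb*, 0.45 for *Ctsg* and 0.61 for *Ctsw*.

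Of the list of inhibitors of cysteine cathepsins and related proteins, 4 of 20 genes were on the array. *Cstb*, which encodes the intracellular inhibitor cystatin B, was higher by 0.32 ± 0.36 (SD, n = 12 rats; limma, adjusted p = 0.0433), a call that was lost with median centring and with the slide as a block. *Cst3*, encoding the secreted cystatin C, had a mean of 0.13 ± 0.19, and its 3 probes lay between 0.12 and 0.13 (limma, adjusted p = 0.118). *Cst7* (cystatin F of leukocytes) had a mean of -0.08 and *Ahsg* (fetuin A) of 0.04, neither past the threshold. The median of the 4 was 0.08, beside 0.01 over all genes, of which 8.66% were called higher.

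In the list for class II maturation, the process that cathepsin S serves, 4 of 12 measured genes were lower and 0 higher, with a median of -0.10. Over all genes 7.6% were called lower and 8.66% higher, with a median of 0.01. *RT1-DMb*, a chain of the DM molecule that helps to exchange the invariant chain fragment for peptide, was lower by a mean of -1.004 ± 0.429 (SD, n = 12 rats; limma, adjusted p = 0.000169), with each of its 5 probes called. *Ifi30*, encoding the lysosomal thiol reductase GILT, was at -0.46 (limma, adjusted p = 0.00124) and *RT1-DMa* at -0.45 (limma, adjusted p = 0.00419). *RT1-DOb*, a chain of the DM regulator DO, was the fourth at -0.22 (limma, adjusted p = 0.000818). *Cd74*, the invariant chain and itself the substrate of cathepsin S, had a mean of -0.21 ± 0.38 and was lower in 8 of 12 rats, but did not pass the test (limma, adjusted p = 0.206). The class II chain genes *RT1-Da* (-0.07), *RT1-Db1* (-0.12), *RT1-Ba* (0.01) and *RT1-Bb* (0.15) did not pass either.

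Over all genes 7.6% were called lower and 8.66% higher, with a median of 0.01. Of the granule genes listed beside cathepsin G, 3 of 9 measured were lower and 0 higher, with a median of -0.08. Most of the list are serine proteases, of which cathepsin C is known to activate several, but it also holds *Prf1* (perforin, which forms pores; -0.08) and *Mpo* (a peroxidase). They were the granzyme genes *Gzmc* at -1.34 ± 0.68 (SD, n = 12 rats; limma, adjusted p = 0.000448), *Gzmb* at -0.69 ± 0.47 and *Gzma* at -0.38 ± 0.39, each lower in 12 of 12 rats. The 2 probes of *Gzmb* were both called but differed in size, -1.06 and -0.31. The neutrophil granule genes *Mpo* (0.00) and *Prtn3* (0.03) did not pass the test.

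The measured genes of the other lysosomal lists had small mean log2 ratios, unlike the lysosomal *Ifi30* given above. They were few, 3 of 43 listed hydrolases and 8 of 42 listed genes for membrane, sorting and acidification. None of the 3 other lysosomal hydrolases measured was called by limma, with means of -0.11 for *Neu1* (sialidase), 0.03 for *Ppt2* (a thioesterase) and 0.03 for *Dnase2* (the acid DNase). Of 8 measured genes for the lysosome membrane, sorting and acidification, *Scarb2*, encoding the membrane protein LIMP-2, was lower at -0.19 (limma, adjusted p = 0.0223). *Lamp3* was higher at 0.07 (limma, adjusted p = 0.0234), although this probe was well above background on at most 1 of 24 arrays for either sample. The median of these 8 genes was 0.00, beside 0.01 over all genes, of which 7.6% were called lower and 8.66% higher.

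**Figure D4:**
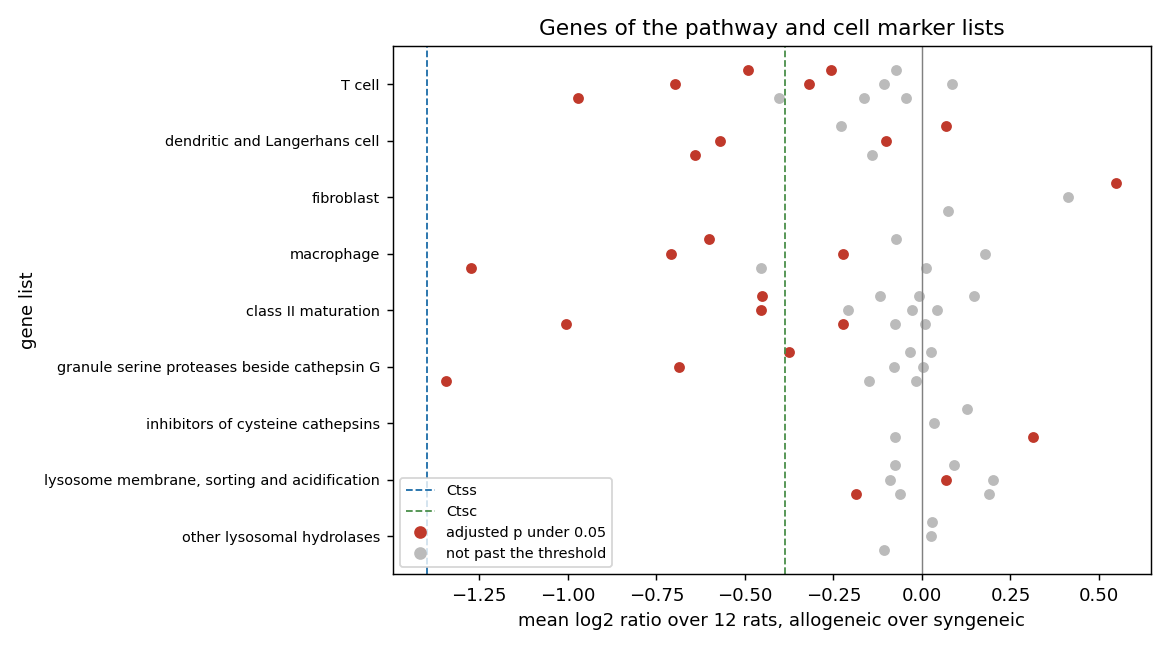
Mean log2 ratio of allogeneic over syngeneic explants over 12 rats (horizontal axis) for each measured gene of the pathway lists and of 4 marker lists, in red where the adjusted p by limma was under 0.05, with dashed lines at *Ctss* (-1.40) and *Ctsc* (-0.39). The class II maturation, granule, macrophage and T cell lists hold called genes below 0 and none above it, while the other lysosomal hydrolases cluster near 0.

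Some markers of macrophages, dendritic cells, T cells and NK cells were also lower, while most leukocyte markers measured were not called. Beside the marker counts here and in the next paragraph, 7.6% of all 7263 genes were called lower and 8.66% higher. Of 8 macrophage markers measured, 4 were lower and 0 higher, namely *Aif1* at -1.27, *Tyrobp* at -0.71, *Itgam* at -0.60 and *Csf1r* at -0.22, whereas *Cd14* (0.01) and *Cd163* (0.18) did not pass the test. Their summed signal ran from 9946 to 24452 in the allogeneic and from 12413 to 35647 in the syngeneic explants and was lower in 11 of 12 rats. For dendritic and Langerhans cells 3 of 6 markers were lower and 1 higher, and the summed signal was lower in 12 of 12 rats (2375 to 3511 against 2989 to 5898). The higher one was *Flt3* at 0.07 (limma, adjusted p = 0.0135), and *Cd83* was lower at -0.64. Among the lower ones, the probe named *Itgax* on the array matched *Itgad* in RefSeq, so it may not read the dendritic marker, although the sum includes it. *Cd80*, also lower, was well above background on at most 10 of 24 arrays for either sample. Of the T cell markers 5 of 11 were lower and 0 higher, and of the NK cell markers 3 of 7 were lower and 0 higher, with *Gzma* among them. By limma, 0 of 4 B cell markers were called. For 11 T cell markers the summed signal was 3061 to 6467 in the allogeneic and 3646 to 8496 in the syngeneic explants. It was lower in 9 of 12 rats, the same number as for the neutrophil and the skeletal muscle sums.

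Of the neutrophil markers, which bear on *Ctsg*, 1 of 4 was higher and 0 lower. Skin cell markers were called in the other direction where they were called at all, with *Col1a2* of fibroblasts at 0.55 and the endothelial genes *Cdh5* at 0.33 and *Pecam* at 0.17, and the mast cell, muscle and keratinocyte lists held no call by limma. Fewer cells of a type and less RNA per cell cannot be told apart in these whole explants, which also hold RNA of the lymphocytes added to them. The part of these cell types in the lower *Ctss* and *Ctsc* levels was not tested.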

How the data were processed

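The authors deposited 1 scanner file per array, with mean and local background intensity of each spot in Cy3 and Cy5, extracted by Feature Extraction 9.5.1.1 per the file headers, and a table of log2 ratios for the series, used as an alternative. Its 24 columns were taken as already turned to allogeneic over syngeneic, since they correlated with the turned log ratios at 0.70 to 0.99 (column medians -0.025 to 0.022), and their background treatment stays unknown. Mean intensities were corrected by normexp (offset 50) and loess within arrays (R 4.3.3, limma 3.58.1, statmod 1.5.0). Control and outlier spots were left out, swapped arrays turned, and spots, the 2 arrays of a rat and the probes of a gene averaged. Genes were tested by limma against 0 with Benjamini-Hochberg adjustment over 7263 genes (called under 0.05). Levels were set on a common scale by Aquantile. They are not compared between probes, and the number of arrays limits their precision. Of 8453 probes, 4685 matched a RefSeq accession (GRCr8 table), which named *RT1-DMa*, *RT1-DMb* and *Gzmf*. Scripts were tested on simulated data.

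Members and lists were chosen with earlier results of these data known. Named are all cathepsins, the 3 called genes of each pathway list with the largest log ratio, all genes of lists with up to 5 measured, and the 5 genes most like *Ctss*. *RT1-DOb*, *Cd74*, the class II chains, *Mpo*, *Prtn3* and the markers were named after their values were seen. Alternatives are given in the closing section.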

Additional observations from a re-analysis of the deposited data

Results flagged for a closer look

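The log ratios of all 5 cathepsin probes differed between the 2 dye orientations, by a limma test of the difference within rats that was added after the data were seen and passed by 52% of the 8453 probes. With the allogeneic sample in Cy5 minus in Cy3, the difference was 1.39 for *Ctsb* (limma, adjusted p = 3.34e-08), 0.36 for *Ctsc* (0.00835), 0.26 for *Ctss* (0.0136), 0.15 for *Ctsw* (0.00257) and 0.12 for *Ctsg* (0.00557). It was above 0 in 12 of 12 rats for *Ctsb* and *Ctss*, in 11 for *Ctsw* and *Ctsg* and in 10 for *Ctsc*. The mean over both orientations, on which the report rests, cancels a dye effect that is equal on both arrays, and for *Ctss* the difference was small beside its mean log2 ratio of -1.40.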

How the results depend on the processing

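*Ctss* kept its direction under every alternative run and stayed past the threshold under all but one, and its means over all slides ran from -1.53 to -1.27. All alternatives took the sign from the same dye labels, so the kept direction cannot show whether those labels are right. Where the 2 samples of a rat were treated as unpaired groups, with no replicate block, *Ctss* (-1.40, limma, adjusted p = 0.0589) and *Ctsc* (-0.39, adjusted p = 0.905) lost their calls, leaving 0 called cathepsin genes. This fit takes the spread between rats, the level of rat 10 included, as error. With the rat as a replicate block over 24 arrays the call count stayed at 2 (*Ctss*, limma, adjusted p = 1.58e-08). With only the arrays that carried the allogeneic sample in Cy5, *Ctsb* (0.58) and *Ctsw* (0.039) reversed, *Ctsg* was called (0.11) and *Ctsc* was not (-0.21). With only those in Cy3, *Ctsb* (-0.81) and *Ctsw* (-0.12) were also called, which made 4 called genes, and *Ctsg* reversed (-0.0095). Calls rose over the whole array too, to 2194 of 7263 genes with the Cy5 arrays and 2086 with the Cy3 arrays, from 1181 in the main fit. Leaving out 1 rat at a time gave -1.50 to -1.28 for *Ctss*, -0.43 to -0.34 for *Ctsc*, -0.15 to -0.04 for *Ctsb*, -0.05 to -0.02 for *Ctsw* and 0.04 to 0.07 for *Ctsg*, with 2 called genes each time. The *Ctss* minus gene differences kept sign and call under the 15 alternatives run for them. Single dye orientations, the slide block and unpaired groups were not among these. As 99.6% of all genes passed this test in the main fit, the kept calls say nothing particular about the cathepsins.

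Counts of called genes in the lists that moved by more than 1.5 times were these. For cathepsin inhibitors they went from 1 to 0 with median centring and with the slide as a block, to 2 with the Cy3 arrays alone and to 2 without rats 8 and 10. For the lysosome membrane list they went from 2 to 1 with processed signals, to 4 with the Cy3 arrays and to 5 without rats 8 and 10. For other hydrolases they went from 0 to 1 and for granule genes from 3 to 5, both with the Cy5 arrays. The other counts stayed within 1.5 times, with 3 to 4 for granule genes, 2 to 3 for the lysosome membrane list and 4 throughout for class II maturation. The cause was not tested. Leaving out rats 8 and 10, or the bright array, was chosen after seeing the data. Each cathepsin gene rests on 1 probe in 12 rats, and *Ctsg* lies near the background.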
